A study of Cavia porcellus with 18 samples.

Results

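The regions described here are H3K4me1 peaks of the guinea pig hippocampus that lay far from every listed transcription start site and held few CG dinucleotides. A peak was included when each of its listed distances to a start site exceeded 20000 bases and when it held at most 15 genomic C positions per 1000 bases of its width. The rule used distance and genomic sequence only, and 17113 of the 99978 peaks with an RRBS average (17.1%) met it. They were 28.3% of the 60438 peaks beyond 20000 bases, called distal peaks below, whereas 19.2% of the 39540 nearer peaks were as poor in CG. The 43325 distal peaks with more C positions, called the other distal peaks, served for comparison.

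H3K4me1, histone H3 with 1 methyl group on lysine 4, marks enhancers in active and in poised states and the flanks of promoters. Most CG dinucleotides of mammalian genomes are methylated, and mutation of methylated C has left much of the genome poor in CG, while CG islands at promoters stay dense in CG and mostly free of methylation. Distal enhancers usually lie in CG-poor DNA, where methylation tends to be intermediate and to differ between cell types.

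Hippocampi came from 3 wild type male guinea pigs aged 12 weeks, and the labels name no treatment. Formaldehyde-fixed, sonicated chromatin was precipitated with an antibody against H3K4me1 for sequencing (3 libraries), with the same mark's antibody for bisulfite sequencing (ChIP-bisulfite, 3 libraries), or with an antibody against the serine 5 phosphorylated RNA polymerase II of initiation (Pol II PS5, 3 libraries). Reduced representation bisulfite sequencing (RRBS, 6 libraries at read lengths of 50 and 100 bases) was made from genomic DNA cut with MspI and ApeKI, and 3 digestion controls without bisulfite were not analysed here. RRBS reads the methylation of all cells of the tissue near the cut sites, and ChIP-bisulfite reads it only on precipitated DNA. The labels name whole hippocampus as the source, so neurons and glia were not separated. Each deposited value pooled the 3 animals. No spread between animals could be computed and no difference below was tested: SD and quartiles are across peaks or CG sites, and intervals of shares are exact 95% binomial (Clopper-Pearson) intervals that cover counting error only.

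The CG-poor distal peaks lay on 257 scaffolds and covered 55.6 Mb. Their median width of 3034 bases was close to the 3013 bases of the other distal peaks. Many were pieces of a larger peak of the authors' H3K4me1 list, though less often than the other distal peaks. Whole list peaks, with the same start and end, were 44.4% of them, against 29.8% of the other distal peaks and 28.2% of all peaks. They held a median of 11.7 C positions per 1000 bases (mean 11.3 ± 2.58, SD) and as few as 1.22, against a median of 25.3 in the other distal peaks. The genomic C count was even in all 99978 peaks, as it would be if the C of each CG were counted on both strands, which the sources used here do not state. The CG-poor peaks often followed each other. Of the 8999 whose next peak was distal and within 20000 bases, 50.7% were followed by a CG-poor one (95% interval 49.7 to 51.8%). Of the 29660 other distal peaks with such a neighbour, 14.9% were (14.5 to 15.3%). Some neighbours were pieces of 1 peak of the authors' H3K4me1 list: 452 of the 16521 list peaks holding a CG-poor peak held several.

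The nearest listed start site was a median of 78657 bases away, with quartiles of 40259 and 163948 and a farthest value of 2178206. The deposited distances were given separately for start sites called Active and Inactive, words the sources used here do not define. The nearest Active start site was at a median of 463134 bases and the nearest Inactive one at 81114.5 bases, and the Inactive one was the closer in 93.2% of the 16625 peaks listed with both. The peaks lay upstream of their nearest start site in 48.6% of cases. The site table paired the nearest Inactive start sites of 13152 peaks with 4484 Ensembl gene identifiers. None of these identifiers matched a gene symbol in the RefSeq gene table at hand, so the regions are named by position and the neuronal and glial gene lists could not be counted.

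RRBS read few positions in these peaks. The median was 5 C positions and 110 reads per peak, against 12 positions and 259 reads in the other distal peaks. The share of genomic C positions that were read was similar (median 16.7% and 16.1%), as was the number of reads per position (20 and 20.2). In all, 107455 of the 5053261 RRBS positions and 2623974 of the 131062338 reads fell in the CG-poor peaks. Fewer than 3 positions were read in 3447 of them (20.1%), and levels below use the 13666 peaks with at least 3 unless stated otherwise.

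Peaks of 2 scaffolds stood apart from the rest and are given first, because they move several of the values that follow. On scaffold 154, which held 97 of the CG-poor distal peaks between positions 234320 and 2015687, RRBS levels ran from 7.91 to 66.9% with a median of 43.6% (mean 41.8 ± 11.8, SD, 92 peaks), and none of the 92 reached 80%. A Pol II PS5 peak overlapped 56 of the 97 peaks (57.7%, 95% interval 47.3 to 67.7%), against 10.5% of all 99978 H3K4me1 peaks. Scaffold 149 had 36 such peaks with a mean RRBS level of 49.4% (SD 17.9, 31 peaks) and Pol II PS5 in 21 of them (58.3%, 40.8 to 74.5%). The 108 other scaffolds with at least 20 CG-poor distal peaks had mean levels of 54.0 to 77.7% and Pol II PS5 shares of 0 to 44.4% with a median of 5.34%.

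The same 2 scaffolds were also read more deeply. Their peaks had medians of 46.1 and 39.6 RRBS reads per C position, against 15.3 to 32.3 on the other scaffolds. On scaffold 154 the other distal peaks, 25 in number, had 43.8 reads per position as well, with a mean level of 62.8% (SD 12.3) and 10 with Pol II PS5. On scaffold 149 the 10 other distal peaks were as low as the CG-poor ones, at 52.1% (SD 22.5), and 4 of them had Pol II PS5. Neither scaffold had a shared CG site or an Active start site listed for its CG-poor peaks. Within scaffold 154 the level was 42.8% (SD 11.6, 54 peaks) with a Pol II PS5 peak and 40.3% (SD 12.1, 38 peaks) without one. On scaffolds 165 and 147, Pol II PS5 shares were also high (34.2% and 44.4%), with 32.3 and 26.3 reads per position, but their mean levels of 77.6% (SD 10.6, 32 peaks) and 77.7% (SD 14.6, 23 peaks) were at the top of the range. Scaffold 138 combined a mean of 54.0% (SD 31.1, 14 peaks) with Pol II PS5 in 6 of 21 peaks at an ordinary 20.4 reads per position, and its 16 other distal peaks were lower still, at 23.9% (SD 21.6) with Pol II PS5 in 10. The low levels of scaffolds 149 and 138 were thus shared by their other distal peaks. What sets these scaffolds apart was not tested.

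**Figure D1:**
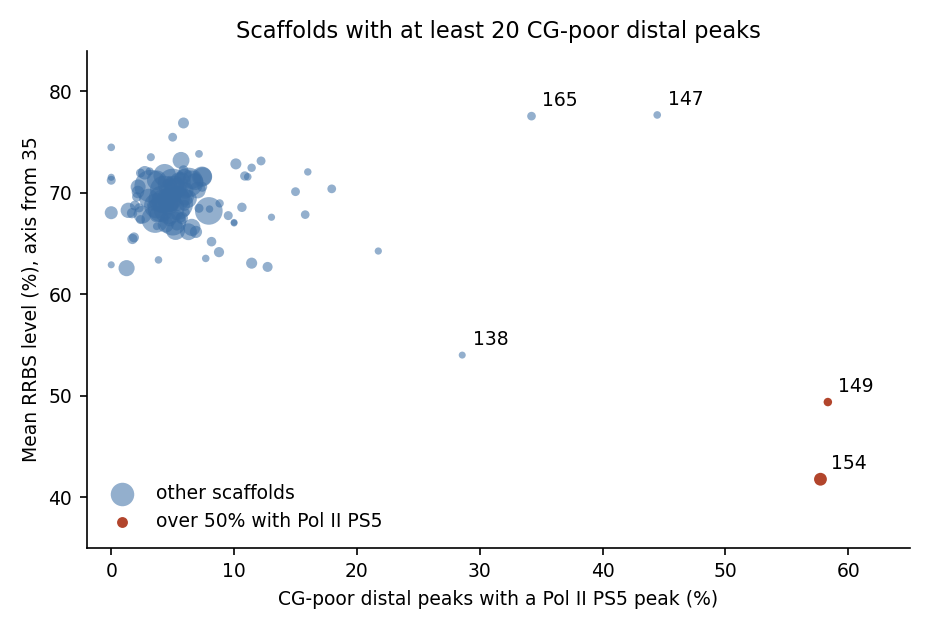
Each point is 1 of 110 scaffolds with at least 20 CG-poor distal H3K4me1 peaks. The horizontal axis gives the percentage of these peaks with a Pol II PS5 peak and the vertical axis their mean RRBS level in percent, from 35 upwards; point area grows with the number of peaks. Scaffolds 154 and 149 lie alone at 57.7% and 58.3% Pol II PS5 and at 41.8% and 49.4% methylation, and scaffolds 165 and 147 have Pol II PS5 shares of 34.2% and 44.4% at levels of 77.6% and 77.7%.

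The CG-poor distal peaks were mostly methylated. Their mean RRBS level was 69.0% (SD 19.7, 13666 peaks), the median was 72.8% and the quartiles were 57.4 and 83.8%. A level of 80% or more was reached by 34.1% (95% interval 33.3 to 34.9%), and only 268 peaks (1.96%) were at 20% or less. The other distal peaks averaged 65.8% (SD 20.4, 41293 peaks), with 27.2% of them at 80% or more. This share tended to be higher where few positions were read. With 3 to 5 RRBS positions it was 35.5% in the CG-poor and 33.0% in the other distal peaks. It was 34.5 and 30.1% from there to 9 positions, 31.2 and 26.8% up to 19, and 31.9 and 22.5% above. Of the distal peaks nearest in density, at 15 to 30, 29.7% were at 80% or more. The mean difference of 3.21 points between CG-poor and other distal peaks was small beside the SD of either group. Their distributions overlapped over the whole range. Without scaffolds 154 and 149 the mean was 69.2% and the difference 3.43 points.

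**Figure D2:**
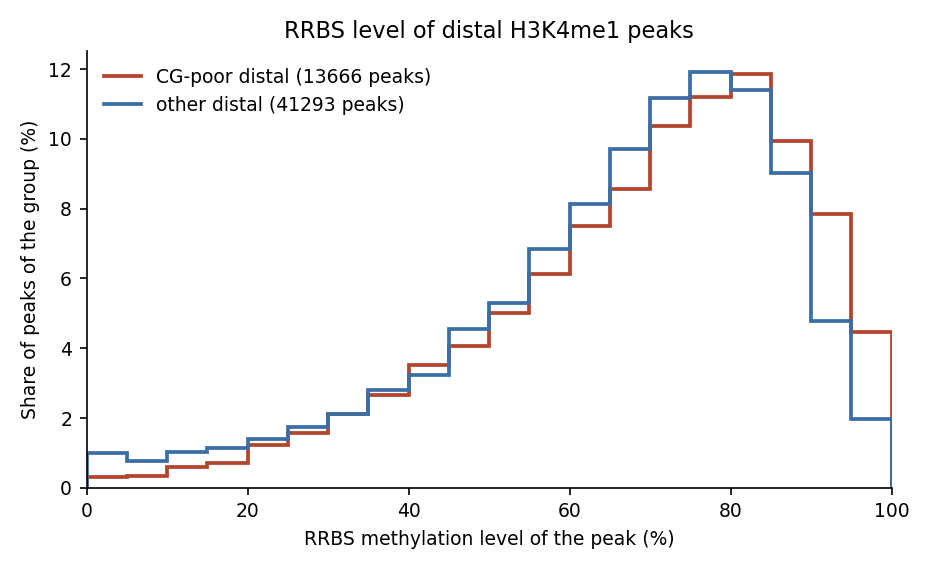
RRBS methylation level in percent (horizontal axis) against the share of peaks of each group in percent (vertical axis), in steps of 5 points, for 13666 CG-poor and 41293 other distal peaks with at least 3 RRBS C positions. The 2 outlines overlap over the whole range. The CG-poor outline is the lower one below 20% and the higher one above 80%. At 80% or more it holds 34.1% of its peaks against 27.2%. Among peaks with 3 to 5 RRBS positions these shares are 35.5% and 33.0%, and above 19 positions 31.9% and 22.5%.

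RRBS peak levels were similar on both sides of the limit of 15. At the CG sites that both assays measured, the levels of both were somewhat lower just above it. Within the CG-poor peaks the mean was 66.8% (SD 22.4, 782 peaks) up to 7.5 C positions per 1000 bases, 69.1% from 7.5 to 10, 69.7% from 10 to 12.5 and 68.7% from 12.5 to 15. It was 68.3% (SD 18.9) from 15 to 20 and 67.9% (SD 18.4) from 20 to 30, and only then lower, at 65.3% (SD 20.05) from 30 to 50 and 52.7% (SD 26.5) above 50. Against the distal peaks of 15 to 30 alone, the CG-poor peaks differed by 0.906 points. At the CG sites that both assays measured, the ChIP-bisulfite mean was 61.7%, 60.8%, 60.97% and 60.3% in the 4 CG-poor classes (SD 39.3 to 42.7) and 56.9% (SD 38.8, 4249 peaks) from 15 to 20. The RRBS mean of the same sites was 69.7% (SD 26.95, 2270 peaks) from 12.5 to 15 and 67.7% (SD 27.4) from 15 to 20. The dip in the RRBS peak level of the class up to 7.5 came with scaffolds 154 and 149: without them its mean was 68.5% (SD 21.8, 731 peaks).

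**Figure D3:**
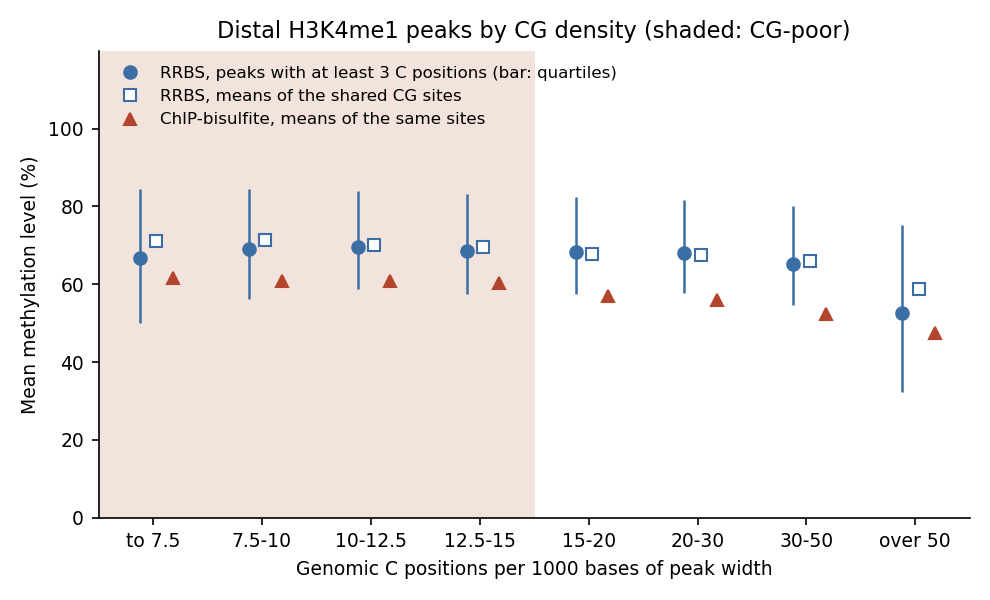
Mean methylation level in percent of distal H3K4me1 peaks by their number of genomic C positions per 1000 bases, with the 4 CG-poor classes shaded. Circles with quartile bars are RRBS peak levels, open squares RRBS and triangles ChIP-bisulfite levels at the CG sites that both assays measured. The RRBS circles stay between 66.8 and 69.7% up to 30 C positions and are at 52.7% above 50. From the sparsest to the densest class the open squares go from 71.1 to 58.8% and the triangles from 61.7 to 47.5%.

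The peaks nearest to the limit differed widely in level. Just inside it, at exactly 15 C positions per 1000 bases, scaffold_153:1293117-1293517 was at 100% on 1 position and 12 reads, scaffold_16:37550289-37551089 at 95.3% on 8 positions and 214 reads, and scaffold_18:36058083-36058483 at 42.6% on 4 positions and 115 reads. Just outside it, scaffold_11:2750638-2753971 was at 78.8%, scaffold_120:524244-530910 at 59.4% and scaffold_41:10188315-10190448 at 34.0%. The first 3 were 400 to 800 bases wide and the last 3 were 2133 to 6666 bases wide.

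The higher mean of the CG-poor peaks was present in each of 5 width classes, by 1.003 to 3.66 points, and in each of 4 classes by the number of RRBS positions, by 1.69 to 4.05 points. By RRBS reads per C position it was 4.98 points up to 15 reads and 3.59, 2.79 and 2.07 points in the next 3 classes, and above 100 reads, with 22 CG-poor and 41 other peaks, it was -6.90 points. The higher mean was also present in 89 of the 100 scaffolds with at least 20 peaks of each kind, where the difference had a median of 4.29 points and ran from -21.1 to 18.6 points. Across the 42 scaffolds with at least 100 CG-poor peaks the mean level ran only from 62.6% (SD 22.2, 121 peaks) on scaffold 34 to 73.2% (SD 18.7, 145 peaks) on scaffold 32. In the peaks without a Pol II PS5 peak the difference was 2.98 points, and in those with one it was 4.66 points.

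The difference between CG-poor and other distal peaks varied with the distance from start sites. At 20000 to 50000 bases the CG-poor peaks averaged 70.5% (SD 19.5, 4585 peaks) and the others 65.3% (SD 20.9, 16575 peaks). The CG-poor mean was lower in each class farther out, at 69.4%, 68.6% and 67.2%, and reached 61.6% (SD 20.7, 458 peaks) beyond 500000 bases. The other distal peaks stayed between 65.3 and 66.5% in all 5 classes. The difference was therefore 5.19, 3.64, 2.09 and 0.952 points, and -4.51 points in the farthest class. Most of the last value came with scaffolds 154 and 149: without them the farthest 387 CG-poor peaks averaged 65.1% (SD 19.9) and the difference there was -1.17 points, while the nearer classes differed by 5.22, 3.71, 2.22 and 1.15 points. Over single peaks the relation was weak (Spearman's rho -0.0825 across 13666 peaks, which share animals and libraries). Peaks downstream of their nearest start site averaged 69.9% (SD 19.3, 7029 peaks) and those upstream 68.0% (SD 20.001, 6637 peaks).

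Higher H3K4me1 scores went with lower methylation. The authors' H3K4me1 scores mix a low scale with a high one that starts at 42, and peaks were ranked only within a scale. On the high scale were 76.6% of the CG-poor distal peaks, against 85.02% of the other distal peaks. Among the CG-poor peaks on the high scale, the mean RRBS level was 70.9% in the lowest of 4 equal score classes and 68.5%, 67.2% and 64.7% in the next 3 (SD 18.1 to 20.8, 2624 to 2893 peaks each). On the low scale it was 75.7%, 75.05%, 73.5% and 70.2% in the same order (SD 17.8 to 19.7).

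Between the scales the CG-poor peaks were at 67.9% (SD 19.7, 11057 peaks) on the high and 73.6% (SD 18.6, 2609 peaks) on the low one, 5.75 points apart. The other distal peaks were 11.1 points apart, at 64.3% (SD 20.6) and 75.3% (SD 16.5). Peaks on the high scale were wider (median 3400.5 against 1636 bases), and within width classes up to 8000 bases the CG-poor peaks on the high scale were lower by 3.89 to 8.40 points. Only 15 low-scale peaks were wider, and there the order was the opposite (71.3% on the high and 60.6% on the low scale). On the low scale, then, the CG-poor peaks were not the more methylated group.

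The peaks with the lowest levels, among those with at least 10 RRBS positions and 200 reads, departed far from the rest. Of the 2861 such peaks (mean 69.96%, SD 16.4), only 18 were at 20% or less. The lowest were scaffold_125:2906729-2910126 at 3.62% (13 positions, 385 reads), scaffold_69:3770275-3774058 at 3.62% (11 positions, 223 reads) and scaffold_14:30371826-30375040 at 4.26% (16 positions, 446 reads). They were followed by scaffold_54:12015567-12017460 at 7.54% and scaffold_60:1068046-1071674 at 11.9%. All 5 lay 40202 to 116923 bases upstream of their nearest start site, none held a Pol II PS5 peak, and their densities of 12.4 to 14.8 were in the upper part of the CG-poor range.

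The highest levels in the same set were 98.6% at scaffold_0:73349161-73351557 (10 positions, 212 reads), 97.8% at scaffold_2:19498902-19502161 (329 reads) and 97.6% at scaffold_5:9736919-9742122 (373 reads). None of these held a Pol II PS5 peak either. The widest peaks, of 14789 to 18098 bases, were at 91.2% (scaffold_3:48200768-48218866), 70.6% (scaffold_13:32282172-32297126) and 89.2% (scaffold_18:24810317-24825106). Of the peaks farthest from a start site, 2 lay on scaffold 149, 2178206 and 1880693 bases away, at 31.5% and 70.5% on 3 positions each. The other one, scaffold_18:36128886-36131155, was 1569866 bases away and at 63.8%.

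ChIP-bisulfite was compared with RRBS at the CG sites that both assays measured, which asks whether DNA carrying H3K4me1 was methylated like the DNA of the whole tissue. The deposited site table held 9557 such sites in 5716 of the CG-poor distal peaks, with 1 to 15 sites per peak and 895 peaks with at least 3. RRBS levels rested on a median of 18 reads per site, whereas the ChIP-bisulfite reads per site are not in the site table. All of these sites were listed downstream of their start site, at distances of 16424 to 941229 bases measured from the site and not from the middle of its peak. Only 20.98% of the peaks holding one lay upstream of their nearest start site, and these peaks had a higher RRBS level (72.5%, SD 18.2, 4656 peaks) than those without a shared site (67.2%, SD 20.1, 9010 peaks). The comparison therefore describes the more methylated part of the CG-poor peaks.

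At the shared sites the ChIP-bisulfite level was the lower one. Averaged within peaks first, it was 60.7% (SD 40.3) against 70.2% (SD 27.6) in RRBS, a mean difference of -9.52 points (SD 37.0, 5716 peaks) with a median of 0. Counted singly, 4043 sites had the lower level in ChIP-bisulfite by any amount (42.3%, against 42.1% of all shared sites) and 3535 were higher (37.0%, against 30.9%). The difference was -11.9 points (SD 33.9) in the other distal peaks and -8.24 points (SD 31.6) in peaks nearer to start sites. All of the sites lay in H3K4me1 peaks and the assays differed in how DNA was cut, so a difference due to the mark and an offset between the protocols cannot be told apart. In the 895 peaks with at least 3 sites the mean difference was -9.48 points with a smaller SD of 23.8: it was negative in 565 and positive in 318, with all sites lower in 78 and all higher in 39.

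Little of this varied with the peak. The mean difference was -9.05 to -10.6 points in the 4 density classes, -9.32 to -11.0 points in the 5 width classes and -8.85 to -9.69 points in the 4 distance classes up to 500000 bases. It was -9.72 points on the high and -8.50 points on the low H3K4me1 score scale. Sites of a single peak often disagreed: the SD among the sites of a peak with at least 3 averaged 23.1 points in RRBS and 33.8 points in ChIP-bisulfite, over a median span of 1364 bases. Across the 9557 sites the levels of the assays went together only loosely (Spearman's rho 0.466, sites sharing peaks and libraries), against 0.490 in the other distal peaks and 0.633 nearer to start sites.

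ChIP-bisulfite levels sat at the ends of the scale. Of the 9557 sites, 24.6% were at 0 and 43.0% at 100 in ChIP-bisulfite, compared with 4.57% and 25.9% in RRBS. Intermediate levels, above 20 and below 80%, made up 14.6% in ChIP-bisulfite (95% interval 13.9 to 15.3%) and 42.1% in RRBS (41.1 to 43.1%). Of the 4024 sites that were intermediate in RRBS, 43.6% were at 20% or less and 38.7% at 80% or more in ChIP-bisulfite. Since the reads behind the ChIP-bisulfite levels are unknown, the part that few reads per site play in this was not tested.

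At equal measured RRBS level, sites of CG-poor distal peaks had higher ChIP-bisulfite levels than sites of the other distal peaks in each of 6 classes. Sites at 0 to 20% in RRBS averaged 23.8% in ChIP-bisulfite (SD 36.3, 963 sites), against 16.9% (SD 31.6, 6736 sites) in the other distal peaks and 9.11% (SD 23.8, 37788 sites) in nearer peaks. Sites at 81 to 99% averaged 74.1% (SD 38.4, 1947 sites) against 67.8% (SD 40.6) and 69.8% (SD 39.5). Sites at 100% averaged 80.03% (SD 35.8, 2476 sites) against 76.3% and 77.3%. Counted as opposite ends of the scale, 16.3% of the CG-poor sites at 20% or less in RRBS (157 of 963, 95% interval 14.0 to 18.8%) were at 80% or more in ChIP-bisulfite, against 10.5% in the other distal peaks (9.76 to 11.2%) and 5.01% in nearer peaks (4.80 to 5.24%). At the other end, 71.3% of the sites at 80% or more in RRBS were also at 80% or more in ChIP-bisulfite (69.96 to 72.6%), against 65.1% and 66.0%. The classes are 20 points wide at the low end, where the CG-poor sites had a slightly higher RRBS mean (7.01%) than the other distal (6.02%) and the nearer sites (3.45%). Levels were equal only as measured, on a median of 18 RRBS reads per CG-poor site. Over all classes the RRBS mean was 69.1% at the CG-poor and 63.3% at the other distal sites. The part that read noise and this unequal mean play in the pattern was not tested.

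**Figure D4:**
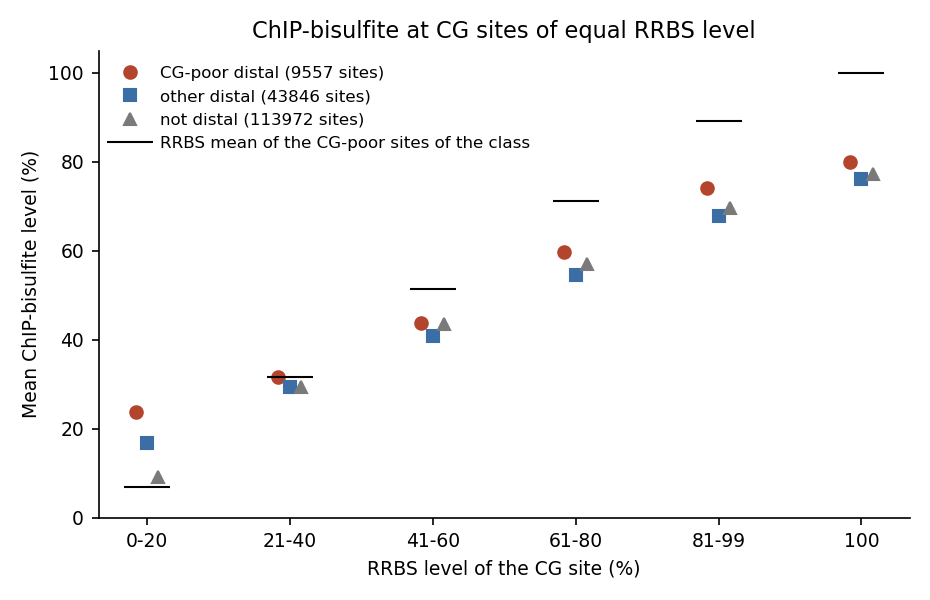
Mean ChIP-bisulfite level in percent (vertical axis) of CG sites in 6 classes of RRBS level in percent (horizontal axis), for 9557 sites of CG-poor distal peaks, 43846 of other distal peaks and 113972 of nearer peaks; bars mark the mean RRBS level of the CG-poor sites of each class. The CG-poor points lie above the other distal points in all 6 classes, at 23.8 against 16.9% in the lowest and at 80.03 against 76.3% in the highest.

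The authors' list of differentially methylated sites held 1445 of the 9557 sites (15.1%, 95% interval 14.4 to 15.9%), spread over 1268 peaks, against 13.1% of all shared sites. Lower in ChIP-bisulfite were 1177 sites (12.3%, against 10.2% of all) and higher were 268 (2.80%, against 2.93%). Sites at least 40 points lower in ChIP-bisulfite were 2292 (24.0%, against 20.4% of all), and 861 were at least 40 points higher (9.01%, against 8.53%). Among sites of 70% or more in RRBS, which alone were listed as lower, the share was 21.1% (20.1 to 22.2%), against 23.8% of all such sites and 25.5% of those in other distal peaks. Among sites of 30% or less, which alone were listed as higher, it was 19.2% (17.2 to 21.4%), against 9.02% of all such sites and 14.2% (13.5 to 14.9%) of those in other distal peaks. Per site that could be called, lower calls were thus fewer and higher calls more frequent than over the whole table. The sites within these limits were not alike, as those at 0 to 20% in RRBS averaged 7.01% in the CG-poor peaks and 3.90% over all. The part that this and read noise play was not tested.

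Listed sites lay at opposite ends of the scale in the assays, as a list of differences with RRBS limits of 70% and 30% requires. The means below describe the list and are no separate result. The 1177 lower sites averaged 88.1% (SD 10.7) in RRBS and 5.36% (SD 8.40) in ChIP-bisulfite, and the 268 higher sites 15.1% (SD 10.7) and 93.7% (SD 8.76). Lower sites lay in 1049 of the 1268 peaks with a listed site and higher sites in 255, and 36 peaks held both kinds. Over all shared sites the counts were 12982 and 4310 of 16136 peaks. Of the 5716 CG-poor peaks with a shared site, 3602 had only 1 and could not hold both kinds, so the 36 is no result about these peaks. No q-value accompanies the list, and no test was added to it.

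The 5 peaks whose ChIP-bisulfite level lay farthest below RRBS, as the mean over at least 3 shared sites, were close to unmethylated in ChIP-bisulfite at each site. In scaffold_30:15069973-15080406, a peak of 10433 bases, the 3 sites were at 100, 100 and 94% in RRBS and at 14, 0 and 0% in ChIP-bisulfite, with 16 to 21 RRBS reads each, a mean difference of -93.3 points. In scaffold_20:10529313-10536336 they were at 87, 100 and 78% against 9, 0 and 0%, within 29 bases of each other. All 4 sites of scaffold_2:75309879-75317365 were at 0% in ChIP-bisulfite, against 100, 100, 73 and 57% in RRBS.

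The remaining pair looked alike. The 3 sites of scaffold_9:49032906-49041138, which span 49 bases and had 20 reads each, were at 80, 80 and 85% in RRBS and at 0% in ChIP-bisulfite. The 4 sites of scaffold_7:27676347-27679683 were at 89, 100, 75 and 60% against 0%, and this was the only one of the 5 with a Pol II PS5 peak. Over all their RRBS positions the 5 peaks were at 71.4 to 78.8%, near the mean of the CG-poor distal peaks. Sites this close can share reads and are then not separate measurements.

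The 5 peaks whose ChIP-bisulfite level lay farthest above RRBS were less uniform. In scaffold_15:21803383-21806724 the 3 sites, within 27 bases, were at 0% in RRBS on 11 reads each and at 100, 47 and 100% in ChIP-bisulfite, although all 9 RRBS positions of the peak averaged 85.5%. In scaffold_18:34082463-34089074 they were at 8, 36 and 8% against 91, 100 and 95%, within 26 bases. In scaffold_38:19626935-19631162 the sites were at 27, 9 and 58% against 91, 92 and 100%. In scaffold_1:10564735-10569255, 2 sites at 0% in RRBS were at 90% in ChIP-bisulfite and 1 more, on 71 RRBS reads, was at 94% and 100%. In scaffold_14:10121978-10126004 the values were 17, 62 and 0% against 100, 93 and 42%. The mean differences were 82.3, 78.0, 63.0, 62.0 and 52.0 points, and apart from the last-named site of scaffold 1 and 1 site of scaffold 14 with 21 reads, RRBS levels rested on 11 to 14 reads, near the deposited minimum of 10.

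**Figure D5:**
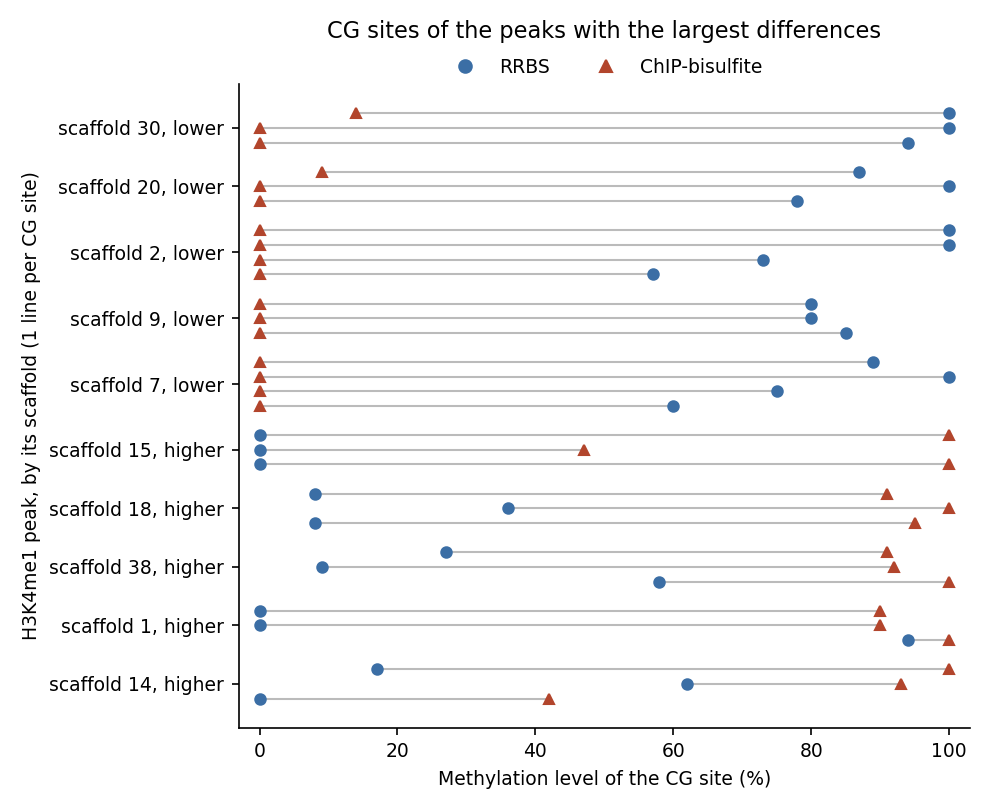
Methylation level in percent (horizontal axis) of each shared CG site of the 5 peaks whose ChIP-bisulfite level (triangles) lay farthest below RRBS (circles) and the 5 where it lay farthest above, 1 line per site and grouped by peak. The triangles of the 5 upper peaks lie at 0 to 14%, and those of the 5 lower peaks at 42 to 100%.

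Pol II PS5 was rare on the CG-poor distal peaks. A Pol II PS5 peak overlapped 1038 of them by at least 1 base (6.07%, 95% interval 5.71 to 6.43%), against 10.5% of all H3K4me1 peaks, 8.04% of the other distal peaks (7.79 to 8.30%) and 15.1% of the nearer peaks (14.7 to 15.4%). Among the other distal peaks it was 7.06% (6.76 to 7.37%) at 15 to 30 C positions per 1000 bases and 9.80% (9.33 to 10.3%) above 30. Next to the limit the shares were close, at 5.93% from 12.5 to 15 and 6.68% from 15 to 20. Without scaffolds 154 and 149 the shares were 5.66% for the CG-poor and 8.02% for the other distal peaks. The share followed width, from 2.17% up to 1000 bases to 9.46% at 4000 to 8000 bases and 23.7% above that. In the 4 width classes up to 8000 bases it was below that of the other distal peaks. In the widest class it was 23.7% (18.8 to 29.1%) against 21.4% (18.0 to 25.1%), and 19.8% against 21.2% without scaffolds 154 and 149.

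Per length, the CG-poor distal peaks held 20.6 Pol II PS5 peaks per Mb, the other distal peaks 27.3 and the nearer peaks 48.6. Of the overlapping Pol II PS5 peaks, 40.6% scored at or above the median of the authors' list, against 42.4% in the other distal peaks. More than 1 was found on 86 of the 1038 CG-poor peaks with Pol II PS5. The same held for 246 of 3485 other distal and 541 of 5951 nearer peaks, which are similar shares. An Active start site was listed for 16628 CG-poor peaks, none of them on scaffolds 154 and 149. Of these peaks, Pol II PS5 was on 6.21% at 20000 to 50000 bases from it, 7.08% at 50000 to 100000 and 3.89% beyond 1000000. The other distal peaks went from 10.5% in the nearest to 6.61% in the farthest class. By distance to any start site the share of CG-poor peaks was 6.26% in the nearest class, 5.15% at 200000 to 500000 bases and 11.8% beyond. Without scaffolds 154 and 149 the last value was 6.27% (4.33 to 8.74%), close to the nearest class.

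CG-poor distal peaks with a Pol II PS5 peak were less methylated than those without. They averaged 64.0% (SD 21.6, 899 peaks) in RRBS against 69.3% (SD 19.5, 12767 peaks), a difference of -5.28 points, and in the other distal peaks the difference was -6.96 points. With levels from the shared CG sites it was -2.03 points, and with a density limit of 10 in place of 15 it was -9.38 points. By class it was largest in the sparsest class, at -13.4 points up to 7.5 C positions per 1000 bases, and -7.36, -4.47 and -3.50 points in the next 3. This gradient came with scaffolds 154 and 149, which held 31 of the 70 sparsest peaks with Pol II PS5: without them the values were -5.37, -3.08, -4.12 and -3.38 points, and -3.70 points over all classes. These scaffolds were set apart by their high Pol II PS5 shares and had low levels, so leaving them out was bound to shrink the difference. With all scaffolds, the difference was negative in each of 5 width and 5 distance classes.

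Directly under the Pol II PS5 peaks, methylation could be read at only 50 shared CG sites of 42 CG-poor peaks. They averaged 65.98% in RRBS (SD 36.4), close to the 67.2% (SD 30.3) of the 592 other sites of CG-poor peaks with Pol II PS5, and 64.3% (SD 46.0) in ChIP-bisulfite against 58.1% (SD 43.9). In the other distal peaks the 369 sites under Pol II PS5 averaged 44.3% (SD 37.0) in RRBS and 35.6% in ChIP-bisulfite, against 60.6% and 49.4% at the sites beside them. At 20% or less in RRBS were 18.0% of the 50 CG-poor sites (95% interval 8.58 to 31.4%) and 36.3% of the 369 (31.4 to 41.5%). In the 19 CG-poor peaks with sites both under and beside a Pol II PS5 peak, RRBS was lower under it in 11 and higher in 8, with a mean difference of -8.24 points (SD 47.8).

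The highest Pol II PS5 score on a CG-poor distal peak, 353.83, was in scaffold_36:5168503-5172762, where the Pol II PS5 peak spanned 192 bases at 5172381-5172573. That H3K4me1 peak also had 19847 RRBS reads on 22 positions and a level of 45.2%. The next, with a score of 145.27, was scaffold_1:69295504-69296025, a peak of 521 bases with 4477 RRBS reads on 4 positions and a level of 55.5%. The depth of this pair stands far above the usual 20 reads per position, and its part in their Pol II PS5 scores was not tested. The other 3, at scaffold_121:446172-446708, scaffold_366:28687-31633 and scaffold_225:84114-89292, scored 35.42, 34.74 and 29.97, with 83, 113 and 399 RRBS reads and levels of 28.9%, 41.5% and 55.8%. All 5 were below the mean level of the CG-poor distal peaks. Scores were otherwise modest, with a median of 3.18 over 1146 Pol II PS5 peaks.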

How the data were processed

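Values were taken as deposited, and each pools the 3 animals. The authors gave, per the file headers, methylation levels in percent per H3K4me1 peak (RRBS) and per CG site (both assays), RRBS reads per peak (treated as estimated counts, since 975 of 198160 lines were not exactly whole) and counts of RRBS reads per C position with at least 10 reads. The deposited H3K4me1 and Pol II PS5 peaks carry the authors' score. The submitters' processing notes name Bowtie2 2.2.3, Bismark 0.12.5, BSMAP 2.74, SAMtools 1.1, MACS2, HOMER 4.6 and methylKit, without roles. The genome build, and whether positions count from 0 or 1, were not given in the sources used here. ChIP-bisulfite columns of the peak table were not used, because they are displaced by lines; levels came from the site table, each site once.

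Every peak of the peak table lay inside 1 peak of the H3K4me1 list and took its score. The CG-poor distal peaks covered a mean of 84.0% of the list peak's width (SD 26.2) and the other distal peaks 75.8% (SD 30.1). Widths are those of the pieces, and scores those of the list peaks. Peak levels needed at least 3 RRBS C positions, and overlap with Pol II PS5 needed 1 base. Named regions were the 5 peaks with ChIP-bisulfite farthest below and the 5 farthest above RRBS over at least 3 sites, the 5 lowest and 3 highest levels among peaks of at least 10 positions and 200 reads, the 5 highest Pol II PS5 scores, the 3 farthest, the 3 widest, and the 3 nearest to the density limit on each side. Scaffolds 154, 149, 165, 147 and 138 were picked after their values were seen. Scaffolds 154 and 149 were set apart by their Pol II PS5 share, so leaving them out was bound to lower that share. The peaks, lists and classes were chosen with earlier results of these data known. Python 3.11.15 with pandas 2.3.3 and scipy 1.17.1 was used, and assignment of sites and overlaps was tested on simulated data. Alternatives for the limits, filters and overlaps were run.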

Additional observations from a re-analysis of the deposited data

How the results depend on the processing

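No paired analysis was possible because each deposited value pools the 3 animals. The results were recomputed in 62 combinations of result and setting. Of these, 13 (the scaffolds left out, the depth limit, the narrower comparison group) were chosen after seeing the data. Only differences between levels have a direction that could change, and each kept its sign. Counts, single levels and shares have none. The low H3K4me1 score scale alone was not among the settings. On it the CG-poor peaks were the lower group, at 73.6% against 75.3% in the other distal peaks. A share counted as moved when it left its binomial interval, and a mean or difference of means when it changed by over 1.96 standard errors. These standard errors treat peaks as independent, although all share animals and libraries. They are narrow beside the SD across peaks and measure no spread between animals. A count or median counted as moved when it changed by over 1.5 times. By these rules 34 moved, and the cause was not tested except where a smaller or larger set is the alternative itself. With density limits of 10 and 20, 5049 and 29306 peaks qualified. The limit of 10 gave an RRBS level of 68.5%, 2.10 points above the other distal peaks, 35.4% of peaks at 80% or more, Pol II PS5 on 5.57%, a Pol II PS5 difference of -9.38 points and 16.0% of sites listed. The limit of 20 gave a difference of 3.82 points from the other distal peaks and 32.7% at 80% or more. A distance of over 50000 bases gave 68.2%, 2.12 points and 32.3%. At least 1 RRBS position gave 68.5%, 2.71 points and 35.6%, and at least 10 gave 69.99%, 4.43 points, 31.3% and a Pol II PS5 difference of -7.65 points. Levels from the shared sites gave 70.2%, 3.77 points, 45.9% and -2.03 points. The high H3K4me1 score scale alone gave 67.9%, 3.63 points, 31.7% and Pol II PS5 on 6.82%. Pol II PS5 was on 5.69% by midpoint and on 2.57% with peaks at or above the median score. Sites at least 40 points apart were 33.0% of the CG-poor sites (24.0% lower and 9.01% higher in ChIP-bisulfite). Over all shared sites 20.4% were lower and 8.53% higher by as much, and in the other distal peaks 25.4% and 8.81%. Without scaffolds 154 and 149, Pol II PS5 was on 5.66% with a difference of -3.70 points, and against distal peaks of 15 to 30 C positions per 1000 bases the RRBS difference was 0.906 points. The ChIP-bisulfite difference stayed between -10.2 and -9.23 points in its 6 alternatives. RRBS depth limits single peaks: 20.1% of the CG-poor distal peaks had fewer than 3 positions.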
